A study of Mus musculus with 29 samples.

Results

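Ovaries of mice that lack p27 (genotype Cdkn1b -/-, called p27-null) were compared between postnatal day 8 (PND8) and 12 weeks of age (12wk) by RNA sequencing of whole dissociated tissue. The 6 libraries, 3 at PND8 and 3 at 12wk (replicates 1, 3 and 4 at each age), were taken by their genotype and age labels from a series of 29 ovary libraries, and no measured value was used to choose them. All 6 are labelled p27-null, so the comparison is one of age within the null genotype. Wild-type ovaries (Cdkn1b +/+) of the same ages, 4 libraries each, served as a reference for how the same genes changed with age when p27 was present. Per the labels, the tissue was dissociated with papain and total RNA was purified with RNeasy Plus Micro columns. The labels give neither strain nor estrous stage, and they do not say whether each library came from a separate animal or from pooled ovaries, so p-values measure the spread between these samples only.

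Cdkn1b encodes p27, an inhibitor of cyclin-dependent kinases that holds cells out of the division cycle and that in the mouse ovary restrains the activation of primordial follicles and granulosa cell division. The juvenile ovary is filled with primordial and small growing follicles, in which oocytes build up the zona pellucida and a store of maternal messenger RNA. The adult ovary holds follicles of all stages together with steroid-producing theca, interstitial and luteal cells, vessels and resident immune cells.

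The libraries held 34518196 to 48213177 gene-assigned counts at PND8 and 24072433 to 41015482 at 12wk. Levels are given as CPM, counts scaled to a library of 1000000 with sizes adjusted by the trimmed mean of M-values, so that 3 counts correspond to between 0.0622 and 0.125 CPM, and since CPM is not corrected for transcript length, levels are compared between libraries and never between genes. The targeted gene was checked first. Cdkn1b, on chromosome 6 (chr6:134920401-134925513, + strand, GRCm38), stood at 71.5, 62.9 and 58.9 CPM in the null PND8 libraries and at 40.1, 51.9 and 55.4 in the null 12wk libraries, against 134 ± 14.2 (SD, n = 4) and 177 ± 67.5 (SD, n = 4) in wild type. The gene total does not show which part of the gene the remaining reads came from. The null age difference of Cdkn1b did not pass the test (log2 fold change -0.39, adjusted p = 0.0725). Defining markers of the ovary were present in every library, among them Foxl2 of granulosa cells (225 to 377 CPM) and Hsd3b1 of steroid-producing cells (1222 to 3862), while the oviduct marker Ovgp1 stayed below 1.31 CPM. Some libraries stood apart in single cell types. PND8 replicate 3 was high in oocyte and surface epithelium genes, and 12wk replicate 4 in vessel and immune genes. Most surface epithelium genes were lowest in 12wk replicate 1 among the adult libraries. These values are given beside each list.

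Between PND8 and 12wk, 5071 of the 17437 genes tested (29.1%) changed at an adjusted p below 0.05 in edgeR's quasi-likelihood test with Benjamini-Hochberg adjustment. Of these, 2578 (14.8% of genes tested) rose and 2493 (14.3%) fell, and the median log2 fold change over all genes tested was -0.01. These shares are the background for every list count given below. Changes of at least 8-fold (3 on the log2 scale) were carried by 320 genes that rose and 404 that fell. Tested against a 2-fold change instead of against none, 445 genes were higher and 458 lower. The count of calls came to 2642 without PND8 replicate 3, 3464 without PND8 replicate 1 and 3478 without PND8 replicate 4, and lay between 4223 and 5129 when a 12wk library was left out. A processed pseudogene, Gm8730, was high in all 3 juvenile and low in all 3 adult null libraries, and with a term for this state over all 8 groups, chosen after seeing the data, 3956 genes were called (1520 higher and 2436 lower). In that fit 72 oocyte-list, 44 cell cycle and 17 fetal growth genes were lower, and 17 macrophage, 12 luteal and 13 steroidogenic genes were higher.

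Oocyte transcripts fell furthest. The 10 largest falls among called genes with a conventional name and a mean of at least 10 CPM were Padi6, Nlrp4f, Nlrp14, Dppa3, Nlrp5, Zp2, Zp3, Zp1, Khdc1b and Eif4e1b, all known from oocytes. The oocyte lists held 90 genes (transcriptional regulators, zona pellucida and secreted factors, maternal effect genes, and genes of meiotic arrest and resumption). Of these, 81 had enough counts to be tested, and 70 of the 81 (86.4%) fell, against 14.3% of all genes. Kit was the single member that rose. The 81 had a median log2 fold change of -5.22, which becomes -5.16 when genes at 0 in the adult are set to the limit of 3 counts. The ages did not overlap, with every juvenile value above every adult one, in 72 of the 81, against 24.1% of all genes in this direction and 47.3% in either. Their median adult level was 2.57% of the PND8 level, and 54 of the 81 kept less than 5%, as did 271 of all 17437 genes. In the adult, 61 of the 81 averaged under 1 CPM, against 6 at PND8. At PND8, 80 of the 81 reached the filter's level (0.277 CPM) in all 3 libraries, and at 12wk 27 did, so that many members entered the test through the juvenile libraries alone and could hardly appear other than lower. In whole tissue, fewer oocytes and less RNA per oocyte cannot be told apart.

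Zp3, of the zona pellucida genes that encode the egg coat, is shown with the sequence around its start site. Padi6 and Nlrp5 are shown for the maternal effect genes. These were chosen because transcripts of their lists were among those that fell furthest. No window was found for Zp1 and Zp2. Windows run from 250 bases before to 50 bases after the RefSeq start on GRCm38.p6, on the gene's own strand, and capitals mark the E-box CANNTG, the letters recognised by basic helix-loop-helix factors such as Figla. The Zp3 window (chr5:135979855-135980154, + strand) held 4 matches, the Padi6 window (chr4:140742594-140742893, - strand) 2 and the Nlrp5 window (chr7:23403852-23404151, + strand) 2. The window of Ooep, which is not shown, held 1. In the GENCODE M21 annotation the Nlrp5 gene begins at chr7:23385889 (+ strand), upstream of its window. The Nlrp5 window therefore lies inside that gene model, and whether transcripts start there was not tested.
Zp3: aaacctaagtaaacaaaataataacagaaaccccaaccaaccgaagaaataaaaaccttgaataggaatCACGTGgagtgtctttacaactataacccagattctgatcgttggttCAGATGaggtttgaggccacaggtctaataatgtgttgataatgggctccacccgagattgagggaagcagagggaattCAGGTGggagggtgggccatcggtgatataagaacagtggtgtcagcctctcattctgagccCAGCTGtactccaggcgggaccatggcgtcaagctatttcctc
Padi6: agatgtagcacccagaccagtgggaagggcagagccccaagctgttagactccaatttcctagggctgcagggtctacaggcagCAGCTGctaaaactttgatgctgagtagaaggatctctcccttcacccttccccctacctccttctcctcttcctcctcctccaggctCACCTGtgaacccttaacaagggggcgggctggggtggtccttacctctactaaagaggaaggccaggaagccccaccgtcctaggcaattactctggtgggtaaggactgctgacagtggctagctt
Nlrp5: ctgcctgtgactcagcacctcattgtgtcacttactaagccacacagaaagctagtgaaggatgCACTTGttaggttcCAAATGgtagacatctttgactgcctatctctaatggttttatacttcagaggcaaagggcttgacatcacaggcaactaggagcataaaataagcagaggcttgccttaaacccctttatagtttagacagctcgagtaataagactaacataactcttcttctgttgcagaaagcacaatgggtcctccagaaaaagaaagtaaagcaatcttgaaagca
CANNTG reads the same on both strands and is frequent. It occurred in 52 of the 57 windows (91.2%) found for the 70 oocyte-list genes that fell, in 64.3% of the 12128 windows found for genes tested and in 72.1% of all 27025. The homeobox letters TAATTG, searched on both strands and known for Nobox, were in 8 of the 57 windows (14%) and in 4.77% of windows of genes tested, and TAATTA was in 5.26% and 2.57%. A match is a description of the letters, not a site of binding.

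The zona genes were abundant at PND8 and low, though still counted, in the adult. Zp3 (chr5:135980099-135988624, + strand) stood at 59.4, 153 and 77.4 CPM in PND8 replicates 1, 3 and 4 and at 0.661, 0.617 and 0.587 in the same-numbered 12wk replicates. The groups were far apart, and PND8 replicate 3 was the highest of the juvenile libraries. The mean fell from 96.7 ± 49.8 to 0.621 ± 0.037 CPM (SD, n = 3), a 156-fold difference (log2 fold change -7.28, SE 0.49, adjusted p = 0.000916). Zp2 (chr7:120126772-120145291, - strand) was also highest in PND8 replicate 3, at 118, 277 and 161 CPM and then 0.826, 1.31 and 1.21 (log2 fold change -7.34, SE 0.44, adjusted p = 0.00079). Zp1 fell by 7.02 on the log2 scale. All 3 genes encode filament proteins of the coat. Gdf9, a growth factor that oocytes secrete to the surrounding granulosa cells, went from 48.1, 149 and 74.1 CPM to 1.82, 2.47 and 2.56 (log2 fold change -5.29, adjusted p = 0.0015). Its partner Bmp15 went from 4.22, 16.0 and 9.37 CPM to 0.454, 0.469 and 0.345 (log2 fold change -4.53, adjusted p = 0.00221). Of the 9 tested genes of this list 8 fell, and the exception was Bmp6, another ligand of the same family, at 17.5, 19.2 and 12.9 CPM before and 21.9, 24.5 and 18.8 after (adjusted p = 0.139).

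Maternal effect genes, whose products are stored in the egg for the embryo, fell almost without exception. Of the 39 tested, 38 fell and none rose, and the list's median log2 fold change was -5.79, or -5.52 when genes at 0 are set to their limit. Padi6, a component of the egg's cytoplasmic lattices, was at 216, 561 and 270 CPM at PND8 and at 0.702, 2.27 and 1.76 at 12wk, so that 0.452% of its juvenile mean was left (log2 fold change -7.73, SE 0.60, adjusted p = 0.00104). Nlrp5, a member of the subcortical maternal complex, went from 76.9, 131 and 73.9 CPM to 0.207, 0.666 and 0.76 (log2 fold change -7.36, SE 0.44, adjusted p = 0.000743). The complex partners Ooep and Khdc3 fell too (log2 fold changes -5.79 and -6.49). Nlrp14, Dppa3, Khdc1b and the translation factor Eif4e1b fell by more than the list's median, with log2 fold changes of -7.59, -7.41, -6.82 and -6.57. Nlrp and Khdc genes have close relatives, between which the authors' counting had to divide reads, so the split among relatives is uncertain.

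Some genes of the maternal list fell less and were still well counted in the adult. Tle6, another member of the complex, kept 13.3, 11.2 and 14.6 CPM in the adult after 74.9, 155 and 84.4 at PND8 (log2 fold change -3.01, adjusted p = 0.00172). Zbed3 kept 33.2% of its juvenile mean (log2 fold change -1.59, adjusted p = 0.00552). Spin1, a chromatin reader that somatic cells also express, went from 306, 358 and 345 CPM to 253, 263 and 242 (log2 fold change -0.41, adjusted p = 0.0159), a call that was lost without PND8 replicate 3 (adjusted p = 0.075) or replicate 4 (0.0542). These 3 genes fell by less than the list's median log2 fold change of -5.79.

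Among the regulators of oocyte identity, 18 of 23 tested fell and 1 rose, with a median log2 fold change of -4.73. Nobox, a homeobox factor needed for follicle growth, went from 16.0, 26.5 and 13.5 CPM to 0.248, 0.37 and 0.725 (log2 fold change -5.37, adjusted p = 0.00103). Figla, the helix-loop-helix factor of the zona genes, was counted at 1.76, 5.36 and 2.65 CPM at PND8 and had no count in any adult library, and Lhx8 went from 3.74, 8.67 and 4.19 CPM to no count. With 3 counts per library as the limit, Figla was at least 32.4-fold lower and Lhx8 at least 55.2-fold lower in the adult. Kit, the receptor that oocytes, theca and mast cells carry, rose from 45.9, 59.4 and 37.2 CPM to 99.1, 72.8 and 79.6 (log2 fold change 0.82, adjusted p = 0.0204), and lost this call without PND8 replicate 1 (adjusted p = 0.0698), PND8 replicate 4 (0.0506) or 12wk replicate 1 (0.0518). Uchl1, a ubiquitin hydrolase used as an oocyte marker, belongs to the maternal effect list and was its 1 tested member that was not called. Uchl1 overlapped between ages, at 62.5, 137 and 69.4 CPM and 35.1, 80.3 and 27.6 (adjusted p = 0.215), and passed the test without 12wk replicate 3 (log2 fold change -1.52, adjusted p = 0.0271). Of the genes listed for meiotic arrest and resumption, 6 of 10 tested fell and none rose (median log2 fold change -0.74). Plk1 of that list is also in the cell cycle list, and the receptor Gpr3 did not pass (adjusted p = 0.0617). Kit of the regulators, Uchl1, Spin1, Tle6 and Zbed3 of the maternal effect list, and Bmp6 and Plk1 of the other oocyte lists were well counted in the adult.

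**Figure D1:**
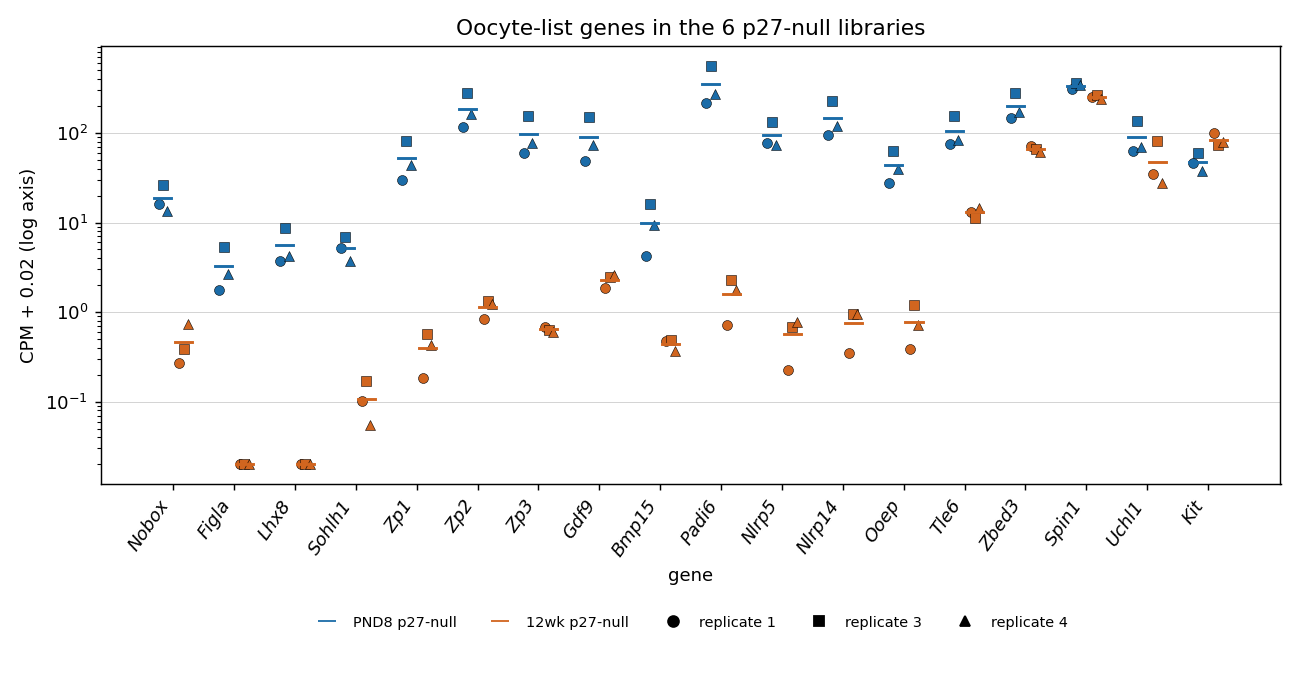
CPM of 18 oocyte-list genes (log axis, 0.02 added so that 0 can be drawn) in the 6 p27-null libraries, PND8 in blue and 12wk in orange, with a symbol per replicate and a bar at the group mean. Most genes drop below 1 CPM at 12wk, Figla and Lhx8 reach 0, and Tle6, Zbed3, Spin1, Uchl1 and Kit stay above 10 CPM.

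The juvenile libraries differed in their levels of oocyte-list genes. PND8 replicate 3 was the highest of the 3 for 67 of the 81 oocyte-list genes, with a median of 1.95 times the mean of the other two. The summed share of all counts taken by the lists was 0.233%, 0.422% and 0.269% at PND8 and 0.0962%, 0.0983% and 0.0898% at 12wk, so the groups did not overlap with or without that library. The same library was highest for all 18 tested surface epithelium genes, at a median of 1.79 times the others, and what this means for its oocyte values was not tested. Without PND8 replicate 3, 61 oocyte-list genes still passed as lower, and without any 1 of the other libraries 65 to 70 did.

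Genes of meiotic prophase, which act in the fetal ovary when homologous chromosomes pair and recombine, were already low at PND8. Only 14 of 25 listed genes could be tested. Of these, 9 fell (64.3%, against 14.3% of all genes) and none rose (median log2 fold change -2.38). All 14 reached the filter's level in all 3 PND8 libraries, and 7 did so in all 3 12wk libraries. Members that entered the test through the juvenile libraries alone could hardly appear other than lower. The cohesin subunit Smc1b went from 9.31, 15.5 and 7.07 CPM to 0.496, 0.444 and 0.449 (log2 fold change -4.52, adjusted p = 0.000955). Syce2, of the synaptonemal complex, kept 34.5% of its juvenile mean (log2 fold change -1.54, adjusted p = 0.00112), and the recombinase Dmc1 fell by 2.55 from 2.07, 1.17 and 1.25 CPM. Mlh3, Rec8, Msh5, Tex11 and Tex15 did not pass.

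**Figure D2:**
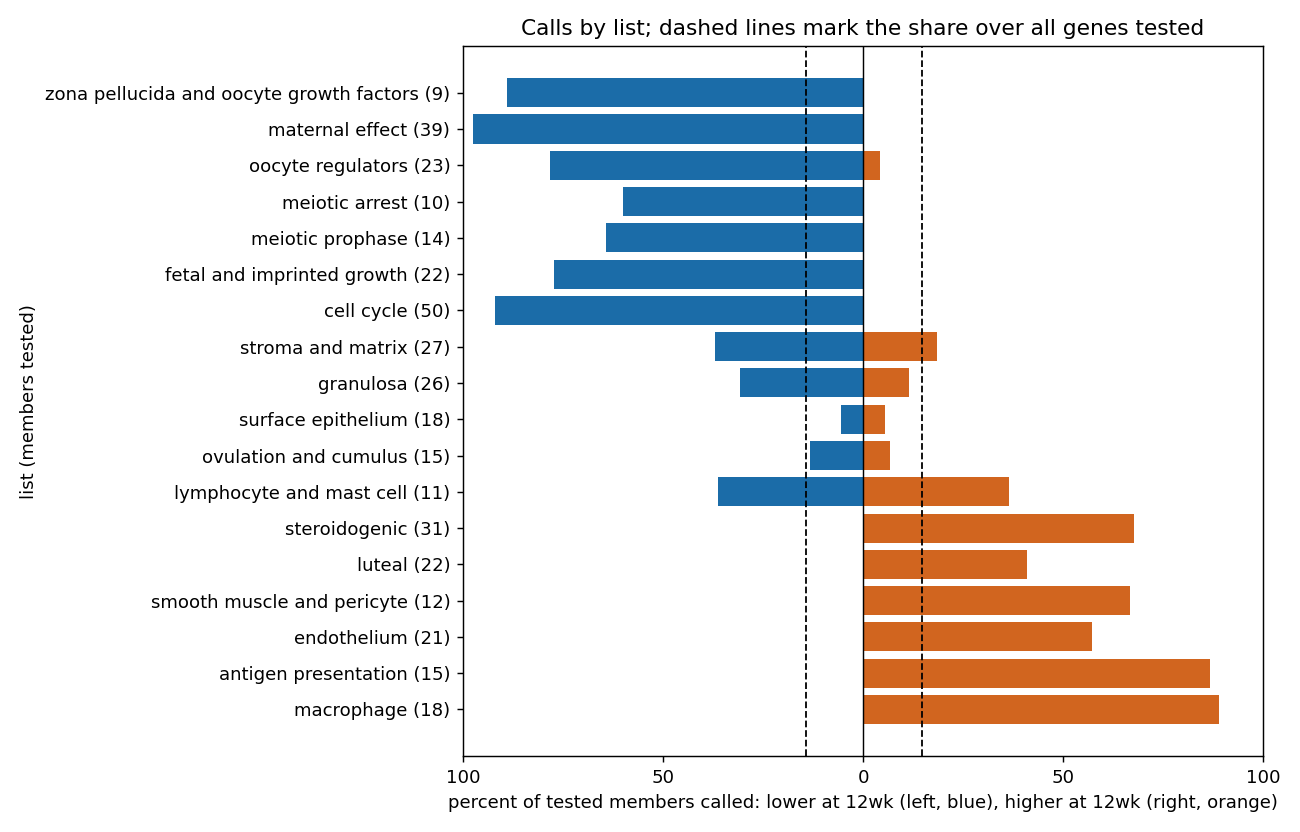
Percent of the tested members of each list that passed the test as lower at 12wk (left, blue) or higher (right, orange), with the number tested in parentheses and dashed lines at the shares over all genes tested, 14.3% and 14.8%. Maternal effect, zona and cell cycle lists extend to the left and macrophage and antigen presentation lists to the right, while granulosa and stroma lists have calls on both sides.

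Cell cycle genes, the machinery that p27 acts upon, were lower in the adult with little spread between libraries. Of 50 tested, 46 fell and none rose, with a median log2 fold change of -0.86, which corresponds to 55.1% of the PND8 level. Most of these differences were smaller than 2-fold, and 1 gene of the 50 passed when tested against a 2-fold change. Kif23, a kinesin of the dividing cell's midzone, was at 107, 99.4 and 96.8 CPM at PND8 and at 41.6, 41.0 and 40.5 at 12wk (log2 fold change -1.3, SE 0.07, adjusted p = 0.000546). Its partner Prc1, which bundles midzone microtubules, went from 193, 168 and 174 CPM to 88.7, 83.7 and 80.7 (log2 fold change -1.08, SE 0.08, adjusted p = 0.000869). The proliferation marker Mki67 went from 823, 709 and 591 CPM to 350, 286 and 292 (log2 fold change -1.19, adjusted p = 0.0023), and Nusap1, Bub1b and topoisomerase Top2a fell as well (log2 fold changes -1.08, -0.97 and -0.90). The adult SD of Kif23 was 0.546 CPM around a mean of 41.0, so the ages lay many times their spread apart. Among genes that act at the entry into the cycle, Cdk6, Ccne1, Ccnd2 and Cdk2 fell (log2 fold changes -1.25, -0.90, -0.85 and -0.54), Ccnd2 only with all libraries or without 12wk replicate 3 (adjusted p otherwise 0.0552 to 0.0817). Ccnd1, Ccnd3, Ccne2 and Cdk4 did not pass. Ccnd1 went from a log2 fold change of 0.21 to -0.56 and was called without 12wk replicate 4 (adjusted p = 0.0184), and Ccne2 was called without 12wk replicate 3 (0.0211).

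The windows around the start sites of 3 of these genes are shown because the list moved as a block. Capitals mark TTTGAA (the cell cycle homology region) and CCAAT (the CCAAT box), each on either strand, so that TTCAAA and ATTGG are their reverse forms. The Kif23 window (chr9:61946750-61947049, - strand) and the Prc1 window (chr7:80294201-80294500, + strand) held 1 match of each kind, and the Top2a window (chr11:99024140-99024439, - strand) held 8 in all.
Kif23: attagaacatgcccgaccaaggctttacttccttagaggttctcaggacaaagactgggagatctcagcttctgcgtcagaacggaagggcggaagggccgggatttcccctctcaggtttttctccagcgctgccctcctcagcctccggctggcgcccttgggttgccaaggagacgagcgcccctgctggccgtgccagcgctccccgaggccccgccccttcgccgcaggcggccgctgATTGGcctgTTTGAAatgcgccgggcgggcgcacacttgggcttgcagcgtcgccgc
Prc1: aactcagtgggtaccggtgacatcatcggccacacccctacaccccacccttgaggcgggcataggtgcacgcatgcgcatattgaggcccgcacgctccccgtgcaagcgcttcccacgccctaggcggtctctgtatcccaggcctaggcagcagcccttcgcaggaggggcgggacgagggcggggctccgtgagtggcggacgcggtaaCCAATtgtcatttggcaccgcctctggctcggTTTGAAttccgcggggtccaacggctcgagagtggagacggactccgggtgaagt
Top2a: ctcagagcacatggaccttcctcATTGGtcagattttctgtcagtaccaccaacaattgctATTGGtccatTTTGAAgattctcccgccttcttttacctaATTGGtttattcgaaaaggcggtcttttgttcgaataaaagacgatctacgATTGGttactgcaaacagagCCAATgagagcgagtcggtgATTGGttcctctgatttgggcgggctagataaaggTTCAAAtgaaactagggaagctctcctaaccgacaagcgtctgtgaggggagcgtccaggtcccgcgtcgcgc
Among the 38 windows found for the 46 cell cycle genes that fell, 29 (76.3%) held CCAAT and 16 (42.1%) held TTTGAA. The shares over the windows of all genes tested were 38.2% and 12.1%. TTTGAA was also in 21.1% of the windows of oocyte-list genes that fell and in 35.7% of those of steroidogenic genes that rose.

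Other inhibitors of cyclin-dependent kinases were examined since the animals lack one. Of the 6 tested beside Cdkn1b, 2 rose and 1 fell, against 14.8% and 14.3% of all genes, so that the count is too small to set the list apart. Cdkn1a (p21) went from 3.50, 2.73 and 2.91 CPM to 8.34, 36.4 and 12.9 (log2 fold change 2.66, adjusted p = 0.0157), with 12wk replicate 3 the highest. Cdkn2b (p15) rose by 2.99 from levels of 0.175 to 0.538 CPM (adjusted p = 0.029). Cdkn1c (p57), the closest relative of p27, fell from 20.3, 16.5 and 17.3 CPM to 11.0, 9.97 and 13.0 (log2 fold change -0.67, adjusted p = 0.016). None of these calls was firm. Cdkn1a lost it without PND8 replicate 1, 3 or 4 (adjusted p = 0.0559, 0.073 and 0.0594), and its log2 fold change was 1.80 without 12wk replicate 3. Cdkn2b lost it without any 1 PND8 library or without 12wk replicate 3 (adjusted p from 0.0562 to 0.104, log2 fold change 1.93 without the latter), and Cdkn1c without PND8 replicate 1 (0.0563).

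Genes of fetal and early postnatal growth, many of them imprinted, fell as a group. Of 22 tested, 17 fell and none rose (median log2 fold change -1.21). Igf2bp2, an RNA-binding protein of growing tissue, went from 68.7, 63.7 and 51.9 CPM to 0.619, 2.86 and 1.66 (log2 fold change -5.10, adjusted p = 0.00146), and by -5.72 without 12wk replicate 3. The chromatin protein Hmga2 went from 27.0, 29.6 and 21.8 CPM to 4.46, 3.97 and 3.42 (log2 fold change -2.73, SE 0.17, adjusted p = 0.000633). The glypican Gpc3 kept 35.3% of its PND8 mean (log2 fold change -1.5, adjusted p = 0.00079). A neighbouring set on chromosome 7 fell together. The imprinted zinc finger gene Peg3 (chr7:6703892-6730431, - strand) went from 589, 398 and 304 CPM to 29.4, 37.5 and 38.6 (log2 fold change -3.61, SE 0.27, adjusted p = 0.000955). Zim1, directly beside it (chr7:6671269-6696450, - strand), fell by 4.32, and Usp29 on its other side (chr7:6730578-6967219, + strand), which is in no list, went from 13.0, 11.6 and 9.10 CPM to 0.124, 0.247 and 0.104 (log2 fold change -6.06, adjusted p = 0.000633). All adult values of the 3 genes lie below all juvenile ones, as in 24.1% of all genes tested. H19, Igf2, Meg3, Peg10 and Gnas did not pass.

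Granulosa cell genes moved little as a list. Of 26 tested, 8 fell (14.3% of all genes did) and 3 rose, a share near the 14.8% of all genes, and the median log2 fold change was -0.08. Gatm, an enzyme of creatine synthesis, went from 289, 329 and 298 CPM to 41.0, 82.5 and 69.0 (log2 fold change -2.25, adjusted p = 0.00194). The vesicular transporter Slc18a2, the transcription factor Wt1, Wnt6 and the Kit ligand gene Kitl fell, with log2 fold changes of -1.44, -1.51, -1.14 and -0.73. Foxl2, which maintains granulosa identity, fell more modestly, from 363, 355 and 377 CPM to 265, 280 and 225 (log2 fold change -0.51, adjusted p = 0.0114). Amh, made by growing follicles, went from 489, 562 and 542 CPM to 228, 392 and 199 (log2 fold change -0.96, adjusted p = 0.0307), a call that held only without 12wk replicate 3 and was lost without each of the other 5 libraries (adjusted p from 0.0638 to 0.099). In the other direction, Inhba, a subunit of activin and inhibin, rose from 59.0, 24.5 and 17.4 CPM to 1011, 1148 and 223 (log2 fold change 4.56, adjusted p = 0.00891; 5.24 without PND8 replicate 1), and the gap junction gene Gja1 rose by 1.17 (adjusted p = 0.0108; 0.055 without PND8 replicate 3). Bex4 rose by 0.62 (adjusted p = 0.0384) but was called in no fit that left out a library other than 12wk replicate 4 (0.0804 to 0.123). The aromatase gene Cyp19a1 had 21.1, 13.6 and 15.0 CPM at PND8 and 76.6, 129 and 18.5 at 12wk and did not pass (adjusted p = 0.0506), but passed without 12wk replicate 4 (0.00462). That library was the lowest of the adult ones for Inhba, Gja1 and Cyp19a1.

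Steroidogenic genes rose. Of 31 tested, 21 rose and none fell, with a median log2 fold change of 1.19 against -0.01 for all genes. Star, which delivers cholesterol to the mitochondrion, went from 7.78, 12.3 and 13.8 CPM to 168, 193 and 917 (log2 fold change 5.24, SE 0.82, adjusted p = 0.00615). Cyp11a1, the side-chain cleavage enzyme, went from 40.7, 32.2 and 146 CPM to 1229, 1429 and 3194 (log2 fold change 4.74, adjusted p = 0.00713). In both genes 12wk replicate 4 was the highest library, and the log2 fold change of Star without it was 4.01. Without PND8 replicate 4, the highest juvenile library for Cyp11a1, that of Cyp11a1 was 5.74. The electron carriers Fdx1 and Fdxr rose by 3.42 and 1.47, and the epoxide hydrolase Ephx1 rose from 16.5, 18.1 and 23.9 CPM to 214, 129 and 174 (log2 fold change 3.14, SE 0.23, adjusted p = 0.000952). The luteinizing hormone receptor Lhcgr went from 13.1, 9.34 and 25.8 CPM to 187, 92.1 and 213 (log2 fold change 3.36, adjusted p = 0.00498). Cyp17a1, the androgen-forming enzyme of theca cells, went from 4.10, 8.49 and 59.3 CPM to 707, 531 and 448 (log2 fold change 4.56, adjusted p = 0.0218), reached 6.49 without PND8 replicate 4, and was not called without PND8 replicate 3 (adjusted p = 0.0772) or 12wk replicate 4 (0.0585). Hsd3b1 was already high at PND8, at 1479, 1222 and 1859 CPM, and rose to 3545, 3012 and 3862 (log2 fold change 1.19, adjusted p = 0.00473). In Star, Cyp11a1, Ephx1, Lhcgr, Cyp17a1 and Hsd3b1 every adult value exceeded every juvenile one, as in 23.2% of all genes tested.

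Several luteal genes varied widely between the adult libraries. Of 22 tested, 9 rose and none fell, and 14 passed without 12wk replicate 1, which was the lowest adult library for 13 of the 22. Luteal genes called higher numbered 5 with no filter on low counts, 5 against a 2-fold change and 15 with DESeq2. The prolactin receptor Prlr rose from 38.3, 29.0 and 47.6 CPM to 212, 223 and 419 (log2 fold change 2.89, SE 0.33, adjusted p = 0.00249), and the lipid carrier Apoe from 84.4, 114 and 119 to 796, 544 and 896 (log2 fold change 2.81, adjusted p = 0.000955). The prostaglandin F receptor Ptgfr, through which luteal regression is triggered, was at 1.76, 1.03 and 0.931 CPM at PND8 and at 2.52, 77.1 and 209 at 12wk (log2 fold change 6.25, SE 1.5, adjusted p = 0.0249). It was not called without 12wk replicate 4 (log2 fold change 5.00, adjusted p = 0.0672) or without any 1 PND8 library (adjusted p from 0.0828 to 0.099). Sfrp4 was likewise lowest in 12wk replicate 1 among the adult libraries, at 24.7, 6.02 and 11.0 CPM and then 6.65, 380 and 522 (adjusted p = 0.0612; 0.00673 without 12wk replicate 1). Hsd17b7 was at 28.0, 30.1 and 28.8 CPM at PND8 and 26.6, 45.0 and 566 at 12wk (adjusted p = 0.115). Akr1c18, which degrades progesterone, was at 0.207, 106 and 2.07 CPM in the adult and did not pass (log2 fold change 1.16, adjusted p = 0.658), but was called lower without 12wk replicate 3 (-3.80, adjusted p = 0.0431). The adult ovaries differed from one another in these genes, and the labels do not give their estrous stage.

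**Figure D3:**
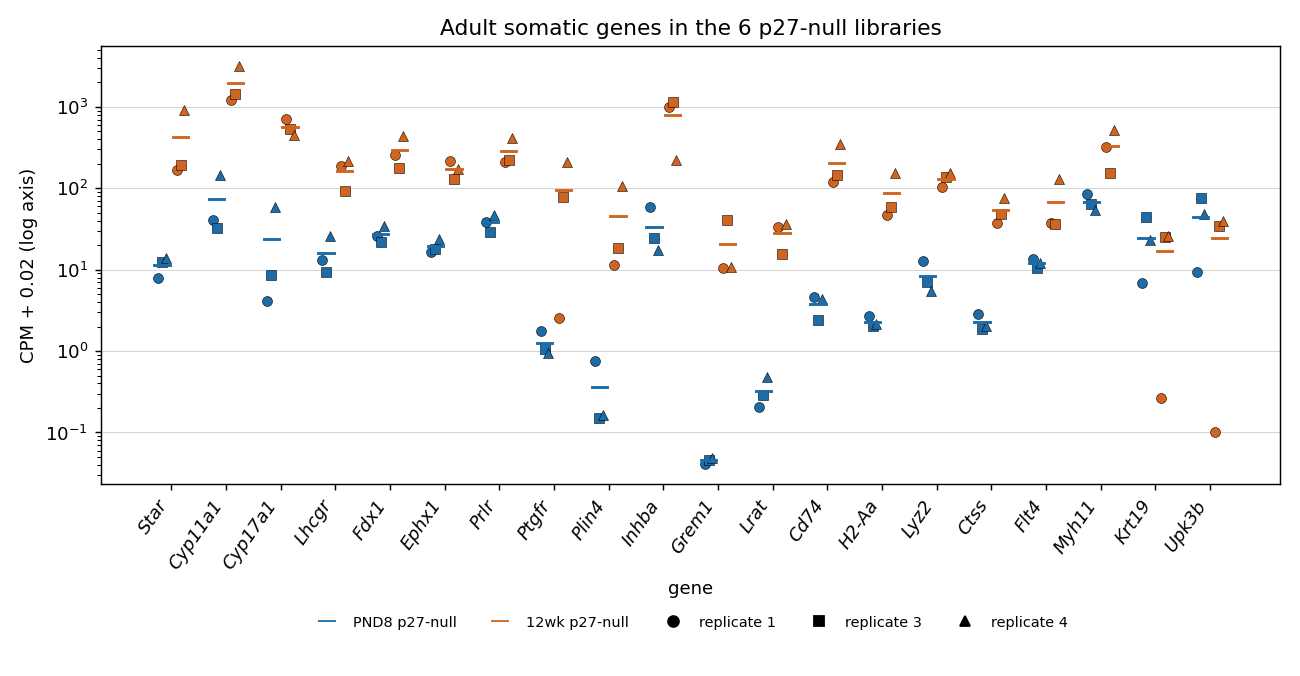
CPM of 20 somatic genes (log axis, 0.02 added) in the 6 p27-null libraries, drawn as PND8 in blue and 12wk in orange with a symbol per replicate and a bar at the group mean. Star, Cyp11a1, Lrat, Cd74 and H2-Aa separate fully between ages, Ptgfr spans 2.52 to 209 CPM within the adult group, and Krt19 and Upk3b are near 0 in 12wk replicate 1 only.

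Macrophage genes rose in the adult. Of 18 tested, 16 rose and none fell, at a median of 8.96 times the PND8 level. The lysosomal protease Ctss went from 2.88, 1.83 and 2.01 CPM to 37.0, 47.7 and 75.7 (log2 fold change 4.57, SE 0.34, adjusted p = 0.000955). Lysozyme (Lyz2) went from 12.7, 7.05 and 5.44 CPM to 103, 139 and 153 (log2 fold change 3.96, adjusted p = 0.0014), and Cd68 from 3.04, 2.71 and 1.75 to 18.4, 21.3 and 21.8 (log2 fold change 3.03, SE 0.23, adjusted p = 0.000869). The defining markers Adgre1 and C1qa rose by 2.80 and 3.68 on the log2 scale. Mrc1 (adjusted p = 0.0835) and Cd163 (0.056), 2 scavenger receptors of resident macrophages, did not pass. Genes of antigen presentation behaved alike, with 13 of 15 risen, none fallen and a median of 5.37 times the PND8 level. The invariant chain Cd74 rose from 4.65, 2.41 and 4.36 CPM to 119, 144 and 351 (log2 fold change 5.74, SE 0.56, adjusted p = 0.0016; 5.11 without 12wk replicate 4). The class II chain H2-Aa rose from 2.69, 1.99 and 2.12 CPM to 46.5, 59.4 and 154 (log2 fold change 5.25, adjusted p = 0.00197; 4.55 without 12wk replicate 4). That library was the highest adult one for all 18 macrophage and all 15 antigen presentation genes, at medians of 2.14 and 2.22 times the other two. Without it 16 and 13 genes still passed, and the antigen presentation count dropped to 7 without PND8 replicate 4.

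Lymphocyte genes rose while mast cell genes fell, 4 of 11 in each direction. The T cell receptor components Cd3e and Cd3g rose by 4.28 and 3.75 from levels at or below 0.124 CPM, and Gzma, a granule protease with no count at PND8, was at least 40.2-fold higher (3 counts per library). Nkg7, another granule protein, had 2 counts over the juvenile libraries and 112 over the adult ones, a ratio of 71.6 after depth scaling (95% counting interval 19.4 to 599), and was not called without PND8 replicate 1 or 3 (adjusted p = 0.0619 and 0.076). Cd3g stood at 3.09 without 12wk replicate 4. The mast cell protease Mcpt4 went from 15.6, 4.69 and 10.2 CPM to 0.0413, 0.123 and 0.104 (log2 fold change -6.70, adjusted p = 0.00118). Cma1, Tpsb2 and Cpa3, the other proteases of mast cell granules, fell as well (log2 fold changes -3.95, -3.21 and -3.16, with Cpa3 at -3.85 without 12wk replicate 3). In all 4 mast cell genes PND8 replicate 1 was the highest library and PND8 replicate 3 the lowest juvenile one.

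Vessel genes rose by counts that depended on single libraries. Of 21 endothelial genes 12 rose and none fell (median log2 fold change 1.68), but 3, 1 and 1 passed without PND8 replicate 1, 3 or 4, and 8 without 12wk replicate 4. That last library was highest for 20 of the 21, at a median of 2.87 times the other two. Endothelial genes called higher numbered 1 with no filter on low counts, 1 against a 2-fold change and 16 with DESeq2. The lymphatic genes Mmrn1 and Flt4 were at 2.13, 4.16 and 3.75 CPM and at 13.7, 10.4 and 12.2 CPM at PND8, and at 34.2, 22.8 and 84.3 and at 37.5, 36.1 and 129 at 12wk. Mmrn1, a matrix protein of lymphatic endothelium, rose by 3.82 (adjusted p = 0.00552; 3.10 without 12wk replicate 4). The growth factor receptor Flt4 rose by 2.48 (adjusted p = 0.0187; 1.61 without 12wk replicate 4) and was not called without a PND8 library (0.0608 to 0.0789). The pan-endothelial markers Pecam1 (adjusted p = 0.0754) and Cdh5 (0.164) did not pass. Of 12 smooth muscle and pericyte genes 8 rose and none fell, and between 1 and 11 passed when a library was left out (1 without PND8 replicate 3, 4 without PND8 replicate 1, 3 without PND8 replicate 4, 5 without 12wk replicate 1). Here too 12wk replicate 4 was the highest adult library, for 11 of the 12 genes and at a median of 2.21 times the other two. Smooth muscle and pericyte genes called higher numbered 2 with no filter on low counts, 0 against a 2-fold change and 10 with DESeq2. Myocd, the coactivator of smooth muscle genes, rose from 13.8, 11.5 and 14.6 CPM to 31.1, 24.2 and 32.6 (log2 fold change 1.14, adjusted p = 0.0028). The myosin gene Myh11 rose by 2.28 (adjusted p = 0.0129; 0.0596 without PND8 replicate 3).

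In the stroma, fibrillar collagens fell and some other matrix and mesenchymal genes rose. Of 27 tested, 10 fell (37%, against 14.3% of all genes) and 5 rose (18.5%, near the 14.8% of all genes). Without PND8 replicate 3 or without 12wk replicate 1, 6 fell. Col1a1 went from 3393, 2078 and 1555 CPM to 679, 577 and 816 (log2 fold change -1.76, adjusted p = 0.00681), and Col1a2 and Col5a1 fell with log2 fold changes of -1.12 and -1.31. The matricellular gene Postn fell from 160, 87.1 and 85.2 CPM to 4.5, 8.12 and 18.5 (log2 fold change -3.42, adjusted p = 0.00717; -4.10 without 12wk replicate 4). By contrast the receptor Pdgfrb rose from 70.4, 53.8 and 61.1 CPM to 157, 131 and 221 (log2 fold change 1.46, adjusted p = 0.00368), and the calcification inhibitor Mgp, the proteoglycan Ogn and the protease inhibitor Timp3 rose by 1.35, 1.12 and 1.07. Col15a1, a basement membrane collagen, rose by 1.01 (adjusted p = 0.0489) and kept the call only when PND8 replicate 1 was left out (otherwise 0.0574 to 0.14).

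Surface epithelium genes were the clearest case of a library standing apart. Of 18 tested, 1 rose (Bnc2, log2 fold change 0.57) and 1 fell (Wt1, which granulosa cells also express). Each is 5.56% of the list, below the 14.8% and 14.3% of all genes. Krt19 was at 6.91, 43.8 and 23.2 CPM at PND8 and at 0.248, 25.0 and 25.9 at 12wk, and Upk3b at 9.47, 75.9 and 47.8 and then 0.0826, 34.4 and 39.4. Msln and Muc16 had no count in 12wk replicate 1. That library was the lowest adult one for 14 of the 18 genes, at a median of 0.108 times the other two. Not all members were low in it. Krt8 was at 50.3, 75.5 and 39.6 CPM and Bnc2 at 59.7, 55.9 and 49.9 in 12wk replicates 1, 3 and 4. Haemoglobin Hba-a1 was at 188 CPM in PND8 replicate 1, and none of 6 blood genes passed. Of 7 oviduct genes 1 fell (14.3%, the same share as of all genes). It was Pax8, which had 98 counts over the juvenile libraries and 1 over the adult ones. Only 3 of the 8 listed fat genes had enough counts to be tested, and the fat cell marker Adipoq was not among them. Pnpla2 and Plin1 rose by 0.56 and 1.07, the latter still called without PND8 replicate 4 but not without any other library (adjusted p from 0.0778 to 0.131). Fabp4 did not pass (adjusted p = 0.29), but was called in 1 of 6 fits that left out a library.

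Several of the genes that rose furthest were nearly silent at PND8 and plain in the adult. Grem1, a secreted antagonist of bone morphogenetic proteins, was seen with 3 counts over the juvenile libraries and 2219 over the adult ones, a ratio of 946 after depth scaling (95% counting interval 323 to 4590). Its adult levels were 10.6, 40.7 and 10.8 CPM, with 12wk replicate 3 the highest. Lrat, which esterifies retinol for storage, went from 0.186, 0.265 and 0.465 CPM to 33.7, 15.5 and 36.2 (log2 fold change 6.56, SE 0.50, adjusted p = 0.000955). The lysosomal glycoprotein Gpnmb went from 0.683, 0.557 and 0.116 CPM to 41.0, 51.9 and 15.4 (log2 fold change 6.26, adjusted p = 0.00236), and the lectin Lgals3 rose by 5.55 (adjusted p = 0.00079). Plin4, a lipid droplet protein of the luteal list, rose from 0.745, 0.133 and 0.145 CPM to 11.5, 18.5 and 106 (log2 fold change 6.94, adjusted p = 0.00947), which was 5.39 without 12wk replicate 4 and 8.30 without PND8 replicate 1. The log2 fold change of Grem1 was 9.51, or 8.55 without 12wk replicate 3.

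**Figure D4:**
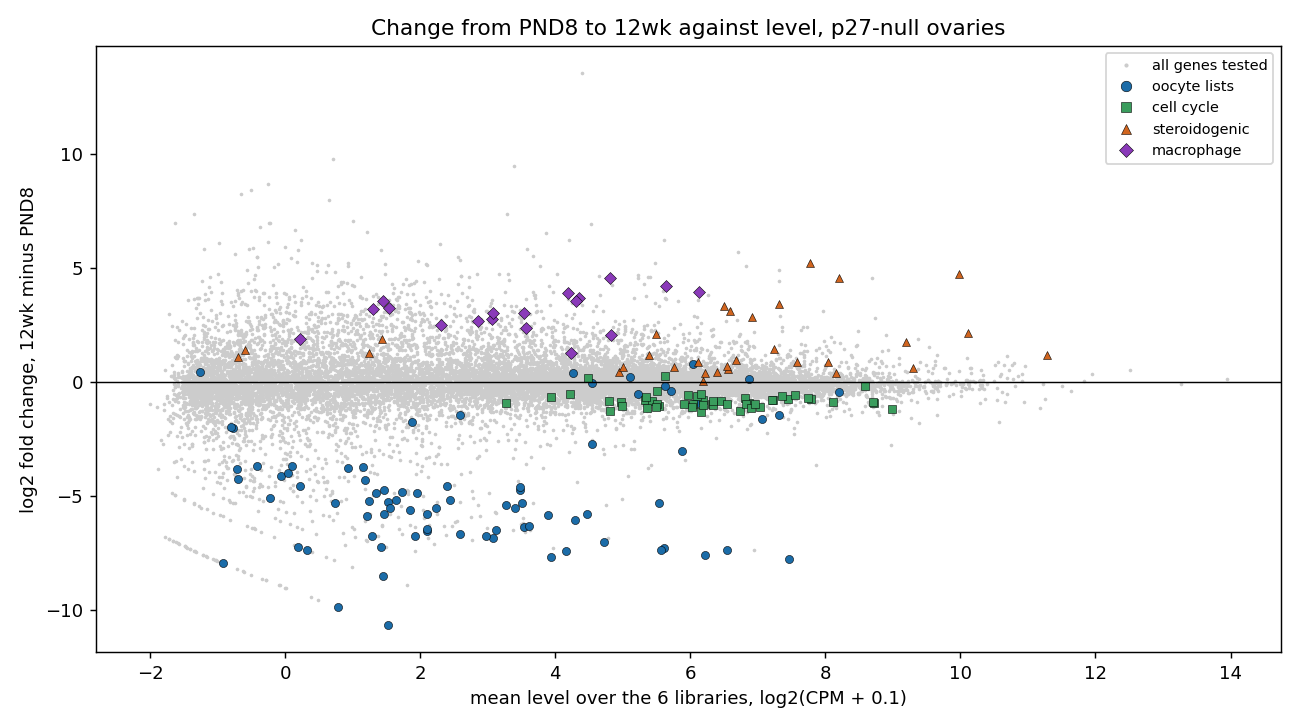
Log2 fold change from PND8 to 12wk against the mean level over the 6 libraries, log2(CPM + 0.1), for all 17437 genes tested (grey) and 4 groups of lists (coloured). Most oocyte-list genes lie far below 0, with well-counted members such as Spin1 (-0.41) and Kit (0.82) near it, cell cycle genes form a narrow band just below 0 at high levels, and macrophage and steroidogenic genes lie above 0.

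Age changes in the null ovary largely followed those of wild type, whose libraries are separate samples. Of the 5071 genes called in the null, 4874 (96.1%) had a fold change of the same sign in wild type. Wild type was measured in the fit of all 14 libraries, where 6164 genes (32.8% of those tested) were called in wild type and 5872 (31.3%) in the null. Of the 5071 null calls from the 6 libraries, 3487 were among these wild-type calls in the same direction, which is 68.8% of the former and 56.6% of the latter. A test of the difference between the genotypes' age changes, on all 14 libraries, called 2 of 18768 genes (0.0107%), while 2064 (11%) had an unadjusted p below 0.05 and DESeq2 called 307. Hoxd8, a homeobox gene, had 22.6, 19.5 and 24.0 CPM in the null at PND8 and 45.8, 43.2 and 45.6 at 12wk, against 32.8 ± 4.34 and 27.0 ± 0.912 in wild type (SD, n = 4). Its log2 fold change was 1.03 in the null and -0.28 in wild type, a difference of 1.3 (SE 0.14, adjusted p = 0.00661). Rarres2, the gene of chemerin, had 45.6, 45.1 and 48.0 CPM and then 170, 122 and 182 in the null, against 74.6 ± 11.5 and 63.8 ± 10.6 in wild type, a difference of 2.00 (SE 0.23, adjusted p = 0.00661). Both calls were lost without null PND8 replicate 1 (adjusted p = 0.0585 for each), and that of Rarres2 without null PND8 replicate 3 (0.0502). The number of genes called lay between 0 (without null PND8 replicate 1) and 13 (without null 12wk replicate 3), with 1 called without null PND8 replicate 3.

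The oocyte lists had negative medians in both genotypes, and no oocyte-list gene passed edgeR's test of the difference, while DESeq2 called 9, all of them lower in the null. The median log2 fold change of the lists was -5.22 in the null and -1.64 in wild type. Of 83 oocyte-list genes tested for a difference, 78 had the lower value in the null and 49 (59%) an unadjusted p below 0.05, against 11% of all genes, with a smallest adjusted p of 0.228. For the maternal effect list alone these were 40 of 40 and 36 of 40. Adult wild-type libraries varied widely in these genes. Zp3 fell from 57.0 ± 38.6 to 4.48 ± 5.04 CPM in wild type (SD, n = 4; log2 fold change -3.67, difference -3.61, unadjusted p = 0.0122, adjusted p = 0.31) and Padi6 was at 206 ± 130 and 10.6 ± 11.8. Bmp15 had a log2 fold change of 0.00 in wild type (4.80 ± 2.85 CPM and 4.78 ± 6.07) and -4.53 in the null (unadjusted p = 0.0028, adjusted p = 0.228). The adult wild-type SDs of Zp3, Padi6 and Bmp15 exceeded their means, whereas the 3 adult null libraries held 0.587 to 0.661 CPM of Zp3. By summed share of counts the genotypes overlapped in the adult, at 0.0898% to 0.0983% in the null and 0.0831% to 0.142% in wild type. In the adult null, 61 of the 81 genes tested averaged under 1 CPM. This share therefore rests mostly on well-counted members such as Spin1 and Kit, and says little about the other genes.

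In no other list did a gene pass edgeR's test of the difference. An unadjusted p below 0.05 was found for 3 of 7 inhibitors of cyclin-dependent kinases (42.9%, Cdkn1b among them), 5 of 12 smooth muscle genes (41.7%), 7 of 24 fetal growth genes (29.2%) and 7 of 27 stroma genes (25.9%), against 11% of all genes. It was found for 2 of 50 cell cycle genes (4%), 2 of 18 macrophage genes (11.1%) and 0 of 15 antigen presentation genes. The smallest adjusted p was 0.128 in the stroma list, 0.159 in the steroidogenic list and 0.189 in the cell cycle list. Among endothelial genes all 21 had the higher value in the null, 4 with an unadjusted p below 0.05, among them Mmrn1 (0.00118, log2 fold change 0.03 in wild type) and Lyve1 (0.00171, 2.15 in the null and -1.3 in wild type), and 12wk replicate 4 of the null was the library with the high vessel genes. Lyve1 was called in the null at an adjusted p of 0.0477 and lost that call without any 1 library other than 12wk replicate 3 (0.0671 to 0.13). The stromal gene Ogn rose by 1.12 in the null and had a log2 fold change of -1.07 in wild type (unadjusted p of the difference 0.000161). Among steroidogenic genes, Ephx1 had 3.14 in the null and 1.89 in wild type (unadjusted p = 0.000424, adjusted p = 0.159). None of the genes named in this paragraph passed the adjusted test of the difference.

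**Figure D5:**
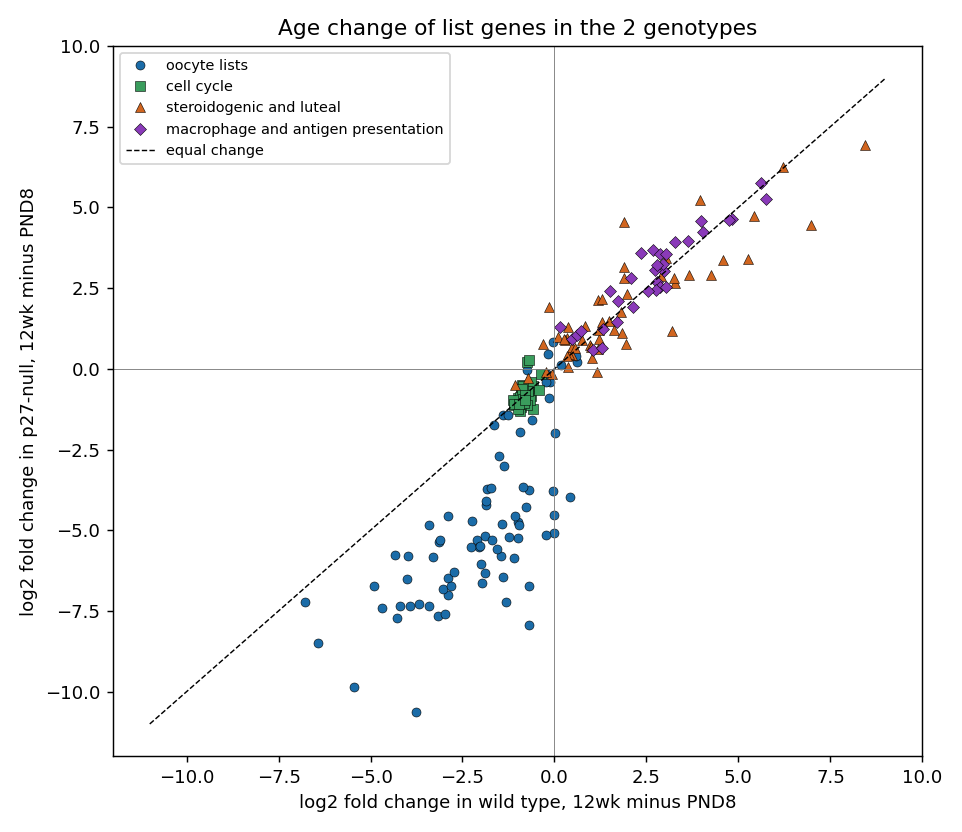
Log2 fold change from PND8 to 12wk in the null (vertical) against that in wild type (horizontal) for the genes of the oocyte, cell cycle, steroidogenic and luteal, macrophage and antigen presentation lists, with a dashed line where both are equal. Most points of the oocyte lists lie below the line, and those of the cell cycle and immune lists lie along it.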

How the data were processed

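RNA from ovaries was sequenced in 29 libraries, of which the 6 p27-null libraries at PND8 and 12wk carry the main comparison. The authors deposited RSEM expected counts per gene, per the file headers, and per the submitters' processing notes reads were trimmed with Trim Galore, aligned with STAR 2.5.2, quantified with RSEM 1.3.0 and checked with FastQC 0.11.5. The genome build, annotation release and strand setting are not given in the sources used here. The header names a folder of 2 combined projects without saying which library came from which, so a batch term could not be fitted. Of the deposited values above 0, 31.4% were not whole, and they were rounded. RSEM divides reads among similar genes, so splits within families (Nlrp, Khdc, Oog, H2) and between overlapping genes are uncertain.

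Of 51912 gene IDs, 51633 carried a symbol and 17437 passed filterByExpr (minimum count 10, minimum total 15). Ages were compared in edgeR 4.0.16 (R 4.3.3, limma 3.58.1) with TMM scaling, a robust quasi-likelihood F test and Benjamini-Hochberg adjustment at 0.05. Every adjusted p is from edgeR unless DESeq2 (1.42.0) is named. Genotypes were compared by an interaction term over 14 libraries. Replicates of 1 group differed beyond sampling noise (chi-square per degree of freedom 33.1 to 125). Fitted fold changes use edgeR's default prior count, and a prior count of 2 was used only for the correlations that checked pairing. Limits use 3 counts, and intervals cover counting error only. Counts were also simulated over 17437 genes. Of 67 genes changed by 1 on the log2 scale, 46.3% were recovered, with 77.4% of 62 at 2 and 94.4% of 71 at 3. There were 21 false calls among 16861 unchanged genes tested. Only these few genes were changed, whereas 29.1% of genes were called in the data. The simulated rates therefore cannot be carried over to the comparison of ages.

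Alternatives were RLE size factors, no filter on low counts, DESeq2, a replicate block, all 8 groups in 1 fit, thinning to the smallest library, a test against a 2-fold change and leaving out each library. The members and lists were chosen with earlier results of these data known. The rule for naming took in Cdkn1b and up to 10 called genes per direction with the largest change. Those had a mean CPM of at least 10, groups apart and a conventional symbol. It also took in the 4 smallest p and first 2 genes of each list, and the 4 smallest interaction p per direction. Any list gene where 5 or fewer are counted was added. Some genes that the rule took in, such as Cntnap5a and Ankrd63, are not described above. Named after their values were seen were Bmp15, Tle6, Zbed3, Spin1, Uchl1, Lhx8, Zim1, Usp29, Kitl, Cdk6, Ccne1, Ccnd2, Cdk2, Cyp19a1, Cyp17a1, Lhcgr, Fdx1, Hsd3b1, Sfrp4, Hsd17b7, C1qa, Postn, Ogn, Lyve1, Cpa3, Krt19, Upk3b, Msln and Muc16. Positions are from GENCODE M21 on GRCm38, which may not be the authors' annotation. Promoter windows are from RefSeq on GRCm38.p6.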

Additional observations from a re-analysis of the deposited data

Results flagged for a closer look

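The age change of Hoxd8 differed between genotypes by 1.3 on the log2 scale, p27-null minus wild type (edgeR adjusted p = 0.00661). All 3 of its adult null values were above all 3 juvenile ones, as in 23.2% of all genes tested. The age change of Rarres2 differed by 2 on the same scale (edgeR adjusted p = 0.00661), again with every adult null library above every juvenile one. Both differences were tested with the interaction of age and genotype over 14 libraries. Each call was lost without null PND8 replicate 1 (edgeR adjusted p = 0.0585), and that of Rarres2 without null PND8 replicate 3 (0.0502). No library stood apart in the 22 groups of 4 wild-type values examined for outliers, and groups of 3 were not examined.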

How the results depend on the processing

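Numbers in the labels did not pair the libraries: same-numbered PND8 and 12wk libraries deviated from their group means with correlations of 0.202, 0.14 and -0.125, and not every library correlated best with its own number. With a replicate block 3711 genes were called, 3597 of them among the 5071, and 3 interaction genes. Other fits called 5048 (RLE), 4969 (no filter), 5928 (DESeq2), 4901 (all 8 groups, 41.4% of them higher against 50.8%, with the median of all genes at -0.10) and 4886 (thinned). A test against a 2-fold change called 903, 445 higher and 458 lower. A fit chosen after seeing the data, with all 8 groups and a term for the Gm8730 state, called 3956, of which 1520 were higher and 2436 lower. Leaving out a library gave 2642 to 5129 calls, 1275 to 2634 higher and 1367 to 2495 lower, and 61 to 70 oocyte-list genes lower. The interaction gave 0 to 13 genes when a library was left out and 307 with DESeq2. The cause of these differences was not tested. The sign of the log2 fold change turned in some fits of genes that were not called with all libraries (Akr1c18 was called lower without 12wk replicate 3, adjusted p = 0.0431). Leaving out a library gave -3.80 to 2.17 for Akr1c18 (-1.57 with the replicate block), -1.53 to 0.49 for Alas2, -0.76 to 0.01 for Foxj1 (0.37 with the Gm8730 term), -1.35 to 1.31 for Hba-a1 (0.18 with the replicate block), -1.89 to 1.13 for Hba-a2, -0.01 to 1.40 for Krt7 and -0.48 to 0.41 for Ovgp1, and Muc1 was at -0.07 without PND8 replicate 4. Depth limits the oocyte genes in the adult, where 61 of 81 averaged under 1 CPM.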

Other observations

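The gene with the smallest p in the age comparison was a processed pseudogene outside all lists. Gm8730 was at 224, 228 and 284 CPM in the null PND8 libraries and at 1.32, 1.53 and 1.66 in the null 12wk libraries (log2 fold change -7.34, edgeR adjusted p = 7.87e-06). Over the series it took 1 of 2 states, 162 to 309 CPM in 9 libraries and 0.353 to 2.46 in 20. All 3 null PND8 libraries were in the high state and none of the null 12wk ones, but in wild type 1 of 4 PND8 and 3 of 4 12wk libraries were. With the groups in the fit, 4 of 20359 genes followed the same split, Gm8730, Gm14165, Rplp0-ps1 and Gm9625. These genes were chosen after their values were seen, and the labels hold no record that matches the split.

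Ovulation and cumulus genes were called no more often than other genes. Of 15 tested, Cebpb rose by 2.30 (14.8% of all genes rose) and Vcan and Tnfaip6 fell, with log2 fold changes of -1.41 and -1.54 (14.3% of all genes fell), and the list's median was 0.18. Tnfaip6 was called only without 12wk replicate 3 among the fits that left out a library (edgeR adjusted p otherwise 0.0517 to 0.119).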
